A study of Oryctolagus cuniculus with 6 samples.

Results

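The insulin-like growth factor (IGF) axis was examined in limbal stem cells (LSCs), the epithelial stem cells at the rim of the cornea. The 10 genes chosen were the ligands IGF1 and IGF2, the receptors IGF1R and INSR, and the IGF binding proteins IGFBP2 to IGFBP7, and all 10 were present among the 22190 genes of the count table. RNA-seq was performed on primary rabbit LSCs that grew out of limbal explants in keratinocyte medium, with 3 libraries from fresh tissues and 3 from preconditioned tissues. In the preconditioned group, the corneas had been kept for 7 days in liquid nitrogen, in freezing medium with the inflammatory cytokine IL-1β at 10 ng/mL. The fresh group was neither frozen nor given IL-1β. The effects of freezing and of IL-1β cannot be told apart in these groups. Strain, age and the animal behind each library are not given in the sources used here, so p values measure the spread between libraries, which may be partly technical.

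IGF1 and IGF2 are secreted growth factors that act through IGF1R, a receptor tyrosine kinase, while INSR, the insulin receptor, also binds IGF2 in one of its isoforms. Signals pass through the adaptors IRS1 and IRS2 to PI3K, AKT and mTOR. The binding proteins hold IGFs in the extracellular space, where they can carry them, keep them from the receptor or release them after cleavage by proteases, and several of them also bind cells or matrix directly. IGF signalling supports growth, survival and migration of corneal epithelial cells.

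The libraries held 31952352 to 34327534 counts on genes. CPM here stands for counts relative to the library size after scaling by edgeR's TMM factors and is used to compare libraries, and the deposited FPKM, which is divided by gene length, is used to compare genes. KRT5, a basal epithelial keratin, was at 791 to 1285 FPKM in all 6 libraries, and TP63, the gene of the stem cell marker p63, was at 35.8 to 38.7 FPKM in the fresh and 15.9 to 26.5 FPKM in the preconditioned libraries. TP63 was thus lower in every preconditioned library but missed the cutoffs given below (log2 fold change −0.77, edgeR adjusted p = 0.059). EPCAM, an epithelial adhesion molecule named after its values were seen, was at 51.4 to 60.3 FPKM in the fresh and 61.2 to 74.1 FPKM in the preconditioned libraries and missed them as well (log2 fold change 0.50, edgeR adjusted p = 0.060). KRT3, a keratin of differentiated corneal epithelium, ranged from 96.2 to 1238 FPKM, and PAX6, a corneal fate factor, was at 39.7 to 49.1 FPKM in the fresh and 41.9 to 93.3 FPKM in the preconditioned libraries (log2 fold change 0.81, edgeR adjusted p = 0.11). Of the 11 epithelial markers listed, 7 were analysed here. The cutoffs given below were passed by 0 of them in edgeR (2.29% of all tested genes). In DESeq2, 0 passed as well (7.78% of all genes with a DESeq2 adjusted p). The unadjusted edgeR p was at most 0.05 for 3 of the 7 (30.6% of all tested genes). The summed FPKM of 12 markers of keratocytes and fibroblasts ranged from 253 to 488 among fresh and from 386 to 772 among preconditioned libraries, so transcripts of stromal marker genes were present in every library. Among these, 1 of 12 passed in edgeR (2.29% of all tested genes), the collagen gene COL1A1. It was higher in the preconditioned group (log2 fold change 2.66, edgeR adjusted p = 0.015). VIM (129 to 358 FPKM), DCN (17.9 to 93.4 FPKM) and LUM (12.1 to 55.7 FPKM) overlapped between the groups. The summed FPKM of immune markers ranged from 80.5 to 105 among fresh and from 88.7 to 211 among preconditioned libraries and consisted mostly of CD68, whereas PTPRC, which defines leukocytes, had group means of 0.0622 and 0.111 FPKM. CD68 and the melanocyte gene TYRP1, both named after their values were seen, were called by DESeq2 but not by edgeR (log2 fold changes 1.14 and 2.59, edgeR adjusted p = 0.085 and 0.12), and both overlapped between the groups, with TYRP1 below 1 FPKM in every library. Markers of melanocytes and of vascular endothelium summed to at most 1.03 and 3.52 FPKM. The goblet cell list summed to 178 to 528 FPKM, but this was mostly KRT7. The transcription factor SPDEF of that list was at 0.0158 to 0.220 FPKM and KRT13 at most at 7.76 FPKM, both named after their values were seen. MUC5AC of that list was not analysed here. The part of these marker differences and of the other cells in the results was not tested, and in bulk RNA fewer cells of a type cannot be told apart from less RNA per cell.

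Genes were called when the Benjamini-Hochberg adjusted p of edgeR's quasi-likelihood test was at most 0.05 and the absolute log2 fold change at least 1, which held for 344 of 15029 tested genes (2.29%). IGF2 met both cutoffs and was lower in the preconditioned group. IGFBP2 had the largest fold difference of the members and was also lower, but its adjusted p was above the cutoff. IGFBP5 and IGFBP7 were higher in every preconditioned library than in any fresh library, and IGFBP6 was so in CPM but not in FPKM. Of the 10 members, 9 passed the filter on low counts and 1 was called, as can be seen in the plot of fold changes, and for 6 the unadjusted p was 0.05 or lower, as it was for 30.6% of all tested genes. The median log2 fold change of these 9 was −0.24, against 0.01 over all tested genes. Fresh and preconditioned CPM were without overlap in 6 of the 9 tested members, against 36.7% of all tested genes, and on the deposited FPKM scale, compared after seeing the data, in 5 of the 9, against 38.8%. In CPM, the preconditioned libraries were the lower ones for 3 members (18.8% of tested genes) and the higher ones for 3 (17.9%). With 3 libraries on each side, the exact two-sided permutation test cannot go below p = 0.1, which it gave for each tested member without overlap.

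**Figure D1:**
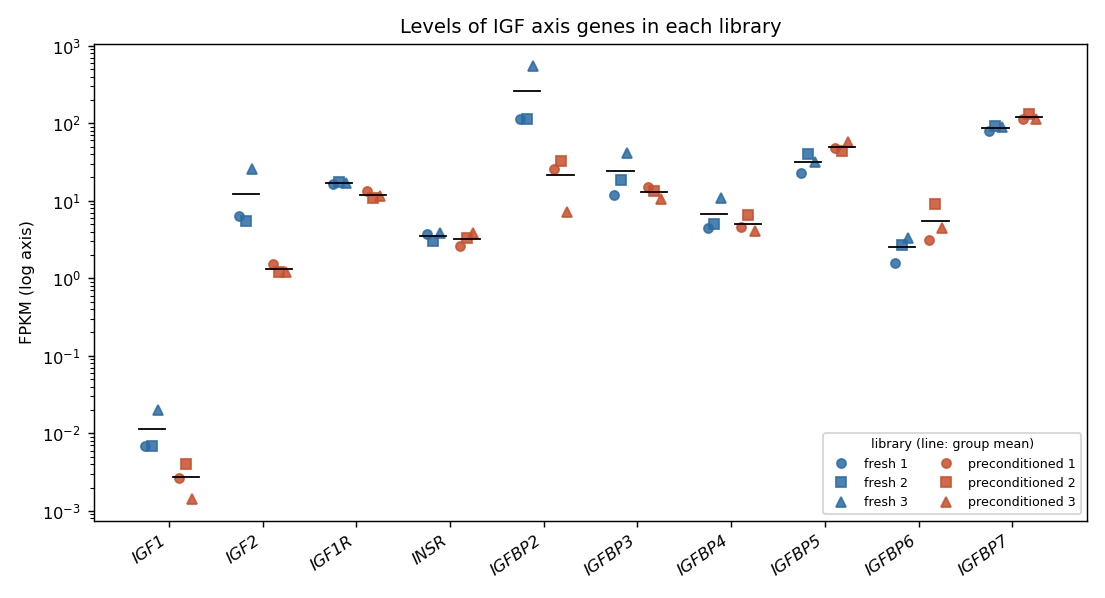
FPKM on a log axis of the 10 IGF axis genes in the 6 libraries, with fresh libraries in blue, preconditioned libraries in orange, and a line at each group mean. IGF2 and IGFBP2 lie lower in all 3 preconditioned libraries, fresh replicate 3 stands highest for both, and IGF1 lies below 0.02 FPKM in every library.

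**Figure D2:**
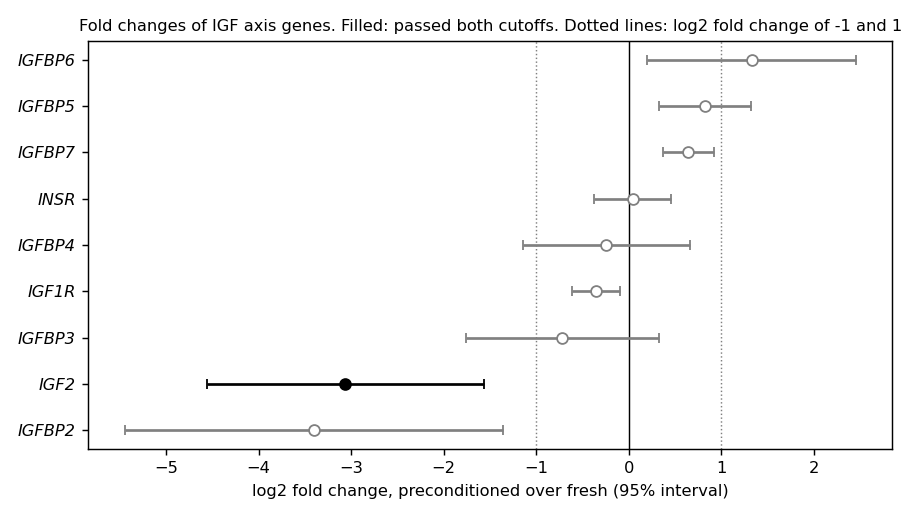
Log2 fold changes (preconditioned over fresh) of the 9 members tested, with 95% intervals from edgeR's fit. The filled point, IGF2, passed both cutoffs, and the interval of IGFBP2 is the widest.

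Among the ligands, IGF2 accounted for nearly all transcripts. IGF2 (NCBI gene 100328792) encodes a growth factor of fetal tissues and was expressed at 25.0, 20.9 and 97.4 CPM in fresh replicates 1 to 3. In preconditioned replicates 1 to 3 it was at 6.48, 5.47 and 5.20 CPM. All preconditioned libraries thus lay below all fresh libraries, and the preconditioned values were close together while fresh replicate 3 was far above the other fresh libraries. IGF2 fell by 3.06 on the log2 scale (standard error 0.63, 95% interval −4.56 to −1.56), an 8.35-fold lower level (edgeR adjusted p = 0.047, with 3.8e-07 to 0.17 over all alternatives). Without fresh replicate 3 the log2 fold change was −2.01 (edgeR adjusted p = 0.030), so the direction and the call did not rest on that library. Leaving out any of the other 5 libraries raised the adjusted p above the cutoff, to 0.060 to 0.17 in edgeR, with log2 fold changes from −3.42 to −2.995.

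IGF1 (NCBI gene 100008668), the main circulating IGF, was near the limit of detection. It had 5, 5 and 15 counts in the fresh libraries and 2, 3 and 1 counts in the preconditioned libraries. The groups did not overlap, but the gene did not pass the filter on low counts. Without that filter, the log2 fold change was −1.82 (standard error 0.88, edgeR adjusted p = 0.25), and DESeq2 gave −1.87 with no adjusted p. From the summed counts of 25 and 6, the level was 3.69 times as high in the fresh group (exact 95% Poisson interval 1.48 to 11.0, counting error only). Of the 25 fresh counts, 15 came from fresh replicate 3, so the size of this ratio rests largely on that library. Per length, IGF2 was above IGF1 in all 6 libraries, and the low IGF1 counts allow no precise ratio.

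The receptors varied little. IGF1R (NCBI gene 100144342), the receptor for both IGFs, was at 196, 208 and 198 CPM in the fresh group and at 174, 148 and 149.5 CPM in the preconditioned group. Every preconditioned library was below every fresh library, by a small margin. The log2 fold change was −0.35 (standard error 0.11, 95% interval −0.61 to −0.10, edgeR adjusted p = 0.086), which did not reach either cutoff. INSR (NCBI gene 100008911) was at 33.4, 27.5 and 33.8 CPM in the fresh group and at 25.5, 33.9 and 38.1 CPM in the preconditioned group. The groups overlapped, with a log2 fold change of 0.04 (95% interval −0.37 to 0.46, edgeR adjusted p = 0.89) that became −0.13 with library size alone as the scaling. Neither receptor gene was called by edgeR (2.29% of all tested genes) or by DESeq2 (7.78% of all genes with a DESeq2 adjusted p). The unadjusted edgeR p was 0.05 or lower for 1 of them, IGF1R (30.6% of all tested genes). The FPKM of IGF1R was 4.45 to 5.76 times that of INSR in the fresh libraries and 5.18, 3.31 and 2.98 times in preconditioned replicates 1, 2 and 3.

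IGFBP2 (NCBI gene 100348647), a secreted binding protein with an integrin binding motif and a preference for IGF2, was at 144, 143 and 702 CPM in the fresh group. It was at 35.8, 47.5 and 10.1 CPM in the preconditioned group. The lowest fresh library was well above the highest preconditioned library, and both groups contained a library far from the other two. The means were 329.6 ± 322 and 31.2 ± 19.1 CPM (SD, n = 3 each), and the log2 fold change was −3.40 (standard error 0.86, 95% interval −5.44 to −1.36, edgeR adjusted p = 0.062). The difference therefore missed the adjusted p cutoff in edgeR, while the DESeq2 Wald test gave an adjusted p of 0.0052, and all alternatives spanned 0.0052 to 0.21. Without fresh replicate 3, the log2 fold change was −2.205 (edgeR adjusted p = 0.12).

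IGFBP3 (NCBI gene 127485419), the main carrier of IGFs in serum, was at 43.2, 68.4 and 151 CPM in the fresh group and at 60.6, 57.0 and 42.2 CPM in the preconditioned group. The groups overlapped, and the high value of fresh replicate 3 set much of the difference between the means. The log2 fold change was −0.72 (95% interval −1.76 to 0.32, edgeR adjusted p = 0.31) and −0.07 without fresh replicate 3. IGFBP4 (NCBI gene 100337926), an inhibitory binding protein that the protease PAPPA cleaves, was at 8.90, 10.1 and 21.8 CPM and at 10.1, 15.3 and 9.12 CPM in the same order. Its log2 fold change was −0.24 (95% interval −1.15 to 0.66, edgeR adjusted p = 0.70) and turned to 0.27 without fresh replicate 3, so no direction can be given.

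IGFBP5 (NCBI gene 100348897), which binds extracellular matrix, was at 129, 228 and 176 CPM in the fresh group and at 297, 289 and 356 CPM in the preconditioned group. All 3 preconditioned libraries were above the highest fresh library. The log2 fold change was 0.82 (standard error 0.21, 95% interval 0.33 to 1.32, edgeR adjusted p = 0.061), a 1.77-fold difference. IGFBP7 (NCBI gene 103350795), a matrix-associated family member that binds IGFs weakly, was at 85.9, 97.1 and 93.6 CPM in the fresh group and at 134, 161 and 136 CPM in the preconditioned group. Both groups were tight and stood apart. Its log2 fold change of 0.64 (standard error 0.12, 95% interval 0.37 to 0.91) had an adjusted p of 0.039 in edgeR, the lowest of the 9 tested members, but the 1.56-fold difference was below the fold cutoff. Leaving out a library other than preconditioned replicate 1 raised this edgeR adjusted p to 0.081 to 0.14, with log2 fold changes of 0.55 to 0.68.

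IGFBP6 (NCBI gene 100355364), which prefers IGF2 over IGF1, was the least abundant binding protein in the fresh group. It was at 1.54, 2.59 and 3.20 CPM in the fresh group and at 3.38, 10.2 and 4.84 CPM in the preconditioned group. In CPM the groups were separated by a narrow gap, whereas in FPKM they overlapped, with fresh replicate 3 at 3.31 and preconditioned replicate 1 at 3.17 FPKM. Preconditioned replicate 2 stood above the other libraries on both scales. The log2 fold change was 1.33 (standard error 0.48, 95% interval 0.20 to 2.45, edgeR adjusted p = 0.12) and 0.75 without preconditioned replicate 2, whereas without preconditioned replicate 1 it was 1.61 and passed both cutoffs (edgeR adjusted p = 0.041, with 0.032 to 0.35 over all alternatives). Over the 6 binding proteins, 0 passed both cutoffs in edgeR (2.29% of all tested genes), 4 had an unadjusted p of at most 0.05 (30.6%), and 2, IGFBP2 and IGFBP6, passed with DESeq2, which called 7.78% of the 15293 genes that it gave an adjusted p.

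The makeup of the IGFBP transcripts differed between the groups, as shown in the plot of shares. Of the summed FPKM of the 6 binding protein genes, IGFBP2 made up 48.2%, 41.5% and 75.9% in the fresh libraries and 12.1%, 13.6% and 3.61% in the preconditioned libraries. IGFBP7 made up 34.5%, 33.8% and 12.2% in the fresh group and 54.4%, 55.4% and 58.2% in the preconditioned group. IGFBP2 was thus the most abundant binding protein gene in every fresh library and IGFBP7 in every preconditioned library. IGFBP5 contributed 4.30% to 14.9% in fresh and 18.7% to 28.6% in preconditioned libraries, and IGFBP3 5.06% to 6.95% and 5.26% to 7.18%. The sum itself was 234, 271 and 730 FPKM in the fresh group and 211, 236.5 and 198 FPKM in the preconditioned group. Because shares depend on each other, they are given as a description without a test.

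**Figure D3:**
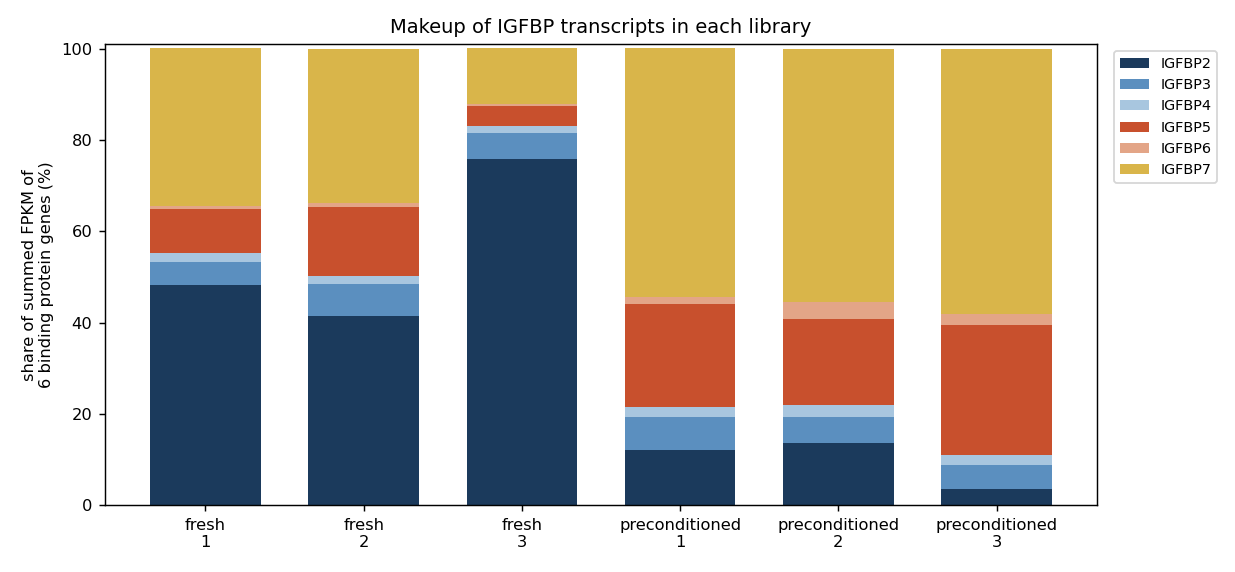
Share (%) of each binding protein gene in the summed FPKM of IGFBP2 to IGFBP7, 1 bar per library. IGFBP2 makes up 41.5% to 75.9% of the fresh bars and 3.61% to 13.6% of the preconditioned bars.

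In the order of mean FPKM, the fresh group ran from IGFBP2 (259.5 ± 255, SD, n = 3) and IGFBP7 (86.9 ± 5.70) over IGFBP5, IGFBP3, IGF1R, IGF2, IGFBP4, INSR and IGFBP6 to IGF1 (0.0112 ± 0.00752). The ranges of neighbours from IGFBP5 down to IGFBP4 overlapped, as did those of INSR and IGFBP6. In the preconditioned group, the order was IGFBP7 (120 ± 9.38, SD, n = 3), IGFBP5 (49.5 ± 6.39), IGFBP2 (21.6 ± 13.0), IGFBP3, IGF1R, IGFBP6, IGFBP4, INSR, IGF2 (1.32 ± 0.181) and IGF1 (0.00270 ± 0.00128). There, IGFBP2 overlapped with IGFBP3, IGFBP3 with IGF1R, and IGFBP6 with IGFBP4. IGF2 moved from rank 6 to rank 9 and IGFBP2 from rank 1 to rank 3.

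Fresh replicate 3 stood apart from the other fresh libraries for the ligands and for part of the binding proteins. Its CPM was 4.89 times the mean of fresh replicates 1 and 2 for IGFBP2, 4.25 times for IGF2, 2.87 times for IGF1, 2.70 times for IGFBP3 and 2.30 times for IGFBP4. Of all tested genes, 5.28% were at least 2 times as high in this library, and 4 of the 9 tested members were. IGF1R, INSR, IGFBP5 and IGFBP7 were at 0.979 to 1.11 times. The summed stromal markers of this library (488 FPKM) were the highest of the fresh group, but below those of preconditioned replicate 2 (772.5 FPKM). Their part in these levels was not tested. In the preconditioned group, replicate 3 had an IGFBP2 level 0.243 times the mean of the other two. Over all tested genes, preconditioned replicate 1 lay between the groups on the first principal component of log2 CPM (50.4% of the variance), at 8.13 against 58.3 and 70.4 for the other preconditioned libraries and −53.1 to −41.1 for the fresh libraries. Leaving it out raised the number of genes called from 344 to 1546, and of the members IGFBP6 was then called and IGF2 was not. The plot of fold changes with each library left out shows where these libraries matter.

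**Figure D4:**
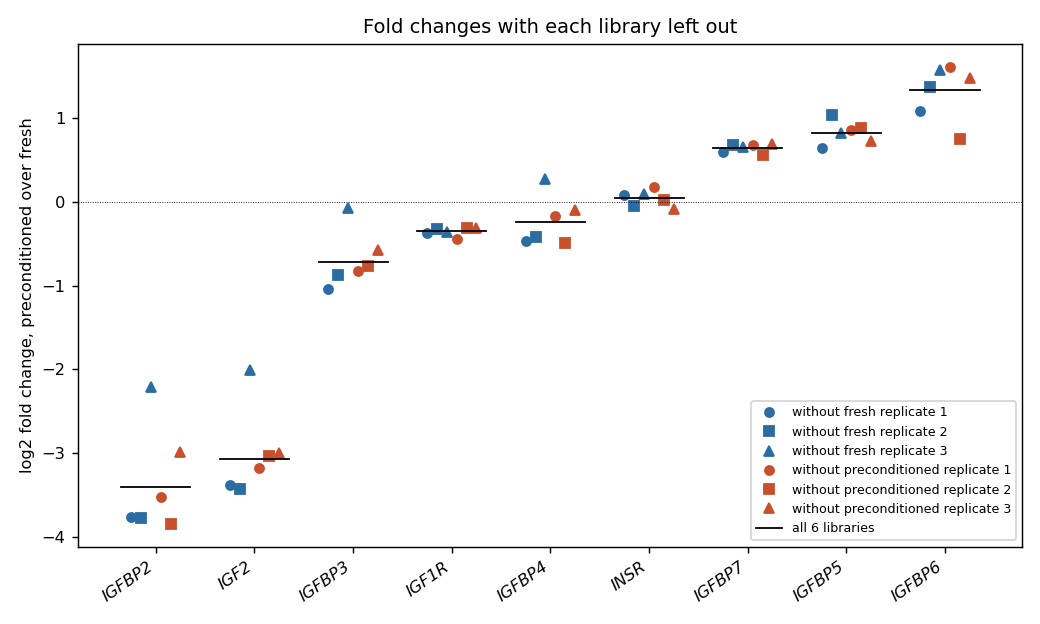
Log2 fold changes (preconditioned over fresh) of the 9 tested members with all 6 libraries (line) and with each library left out (symbols). Without fresh replicate 3, IGF2 and IGFBP2 move to −2.01 and −2.205 and IGFBP4 crosses 0.

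The wider pathway was followed in a list of 58 genes, of which 48 were tested. Of these, 1 passed both cutoffs, 24 had a positive and 24 a negative log2 fold change, and the median was −0.005, so that the share called was near the background of 2.29%. The gene called was ADAM9, a membrane metalloprotease able to cleave IGFBP5. ADAM9 was at 497, 397 and 571 CPM in the fresh group and rose to 884, 1313 and 1148 CPM in the preconditioned group. Its log2 fold change was 1.19 (standard error 0.20, edgeR adjusted p = 0.035). Leaving out any library except preconditioned replicate 1 removed this call, with edgeR adjusted p values of 0.074 to 0.13, while the log2 fold change stayed at 1.06 to 1.32. ADAM12, another metalloprotease that cleaves IGFBP3 and IGFBP5, was at 0.783, 4.28 and 4.51 CPM and at 13.1, 14.2 and 9.09 CPM, with a log2 fold change of 1.92 (edgeR adjusted p = 0.089). STC2, an inhibitor of PAPPA, was at 7.77, 11.6 and 8.89 CPM and at 4.90, 3.45 and 0.922 CPM, with a log2 fold change of −1.61 (edgeR adjusted p = 0.11). DESeq2 called ADAM12 and STC2 as well as ADAM9, and edgeR called STC2 when preconditioned replicate 1 was left out. The groups did not overlap for these 3 genes, as for 16 of the 48 tested pathway genes and for 36.7% of all tested genes. The related inhibitor STC1 (log2 fold change 1.12, edgeR adjusted p = 0.36) overlapped between the groups.

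Outside the proteases and their inhibitors, 0 of 40 tested genes passed in edgeR, 12 had an unadjusted p of at most 0.05 (30.6% of all tested genes), and 1, IGF2BP3, passed with DESeq2 (7.78% of all genes with a DESeq2 adjusted p). IGF2BP3, which binds IGF2 mRNA, was at 12.5, 18.5 and 7.55 CPM in the fresh group and at 5.51, 6.27 and 7.47 CPM in the preconditioned group (log2 fold change −1.002, edgeR adjusted p = 0.10). The preconditioned libraries lay just below the lowest fresh library. The 17 genes of PI3K, AKT and mTOR had log2 fold changes of −0.64 to 0.47, the lowest being EIF4EBP1, a repressor of translation under mTOR (edgeR adjusted p = 0.099). RPS6KB1, the S6 kinase, singled out after its values were seen, had an edgeR adjusted p of 0.049 at a log2 fold change of −0.51. The 11 receptor adaptors and phosphatases, among them IRS1 and IRS2, had log2 fold changes of −0.48 to 0.71, and the 6 FOXO factors and genes of the growth hormone axis −0.18 to 0.61.

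**Figure D5:**
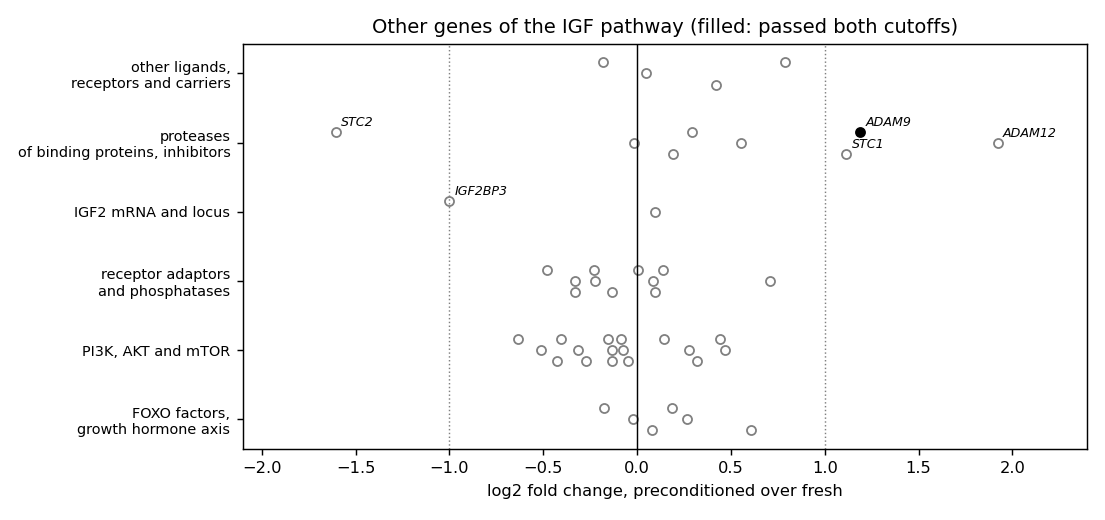
Log2 fold changes (preconditioned over fresh) of 48 other genes of the IGF pathway by role, with names at an absolute value of at least 1. ADAM9, the filled point, passed both cutoffs, and all genes of the 3 lower rows lie between −0.64 and 0.71.

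IGFBP2 was both the member with the highest mean FPKM (141 over the 6 libraries) and the one with the largest fold difference. The genes with a symbol whose log2 CPM was most like it over the 6 libraries were TRAM2 (Pearson's r 0.996), NECAP1 (0.992), SLC8B1 (0.986), CHSY3 (0.985) and CHST12 (0.984). These values share the group difference and the high fresh replicate 3 and are a description, and 73 genes had an r above 0.95. In the RefSeq annotation of the rabbit assembly mOryCun1.1, IGFBP5 and IGFBP2 are listed next to each other. The FPKM of IGFBP2 was 4.95, 2.78 and 17.6 times that of this neighbour in the fresh libraries and 0.535, 0.729 and 0.126 times in the preconditioned libraries. The next named gene on the other side of IGFBP2, RPL37A, had 17652 to 18943 counts in fresh and 23351 to 28057 counts in preconditioned libraries.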

How the data were processed

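RNA-seq of 3 fresh and 3 preconditioned rabbit LSC libraries was analysed. Per the methods, reads were aligned with hisat2 and counted with htseq-count, and the authors deposited these raw counts per gene together with FPKM. The deposited FPKM values equal the count divided by the library's total and by 1 length per gene. Genome build, annotation, strand setting and the definition of length are not given in the sources used here, so no coordinates are printed. Of 22177 gene identifiers, 19462 were found in the RefSeq table of mOryCun1.1, which was used only for neighbours.

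Counts were fitted in R 4.3.3 with edgeR 4.0.16 (filterByExpr, TMM factors of 0.914 to 1.07, robust quasi-likelihood test, no factor other than condition), with p values adjusted over all 15029 genes that passed the filter. Standard errors were derived from the F statistic. Depth limits precision only for genes with few counts, such as IGF1, and otherwise the spread between libraries does. Libraries of 1 group differed by more than sampling noise (chi-square per degree of freedom of 48.1 to 147). The members, gene lists and named genes were chosen with earlier results of these data known. By rule, the named genes were all members, 10 markers and the 5 genes most like IGFBP2. From the pathway list they were the called genes and the 3 largest changes in each direction. Named beside these were RPS6KB1, IRS1, IRS2, the neighbour RPL37A and the markers EPCAM, CD68, TYRP1, PTPRC, KRT7, KRT13 and SPDEF. Of the markers listed, KRT14, KRT12, ABCG2, ABCB5 and MUC5AC were not analysed here. The alternatives were DESeq2 1.42.0, other scalings and filters, a replicate block, each library left out, limma 3.58.1 on log2(FPKM + 1) and log2(FPKM + 0.1), and no fold cutoff. The scripts were tested on simulated data.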

Additional observations from a re-analysis of the deposited data

How the results depend on the processing

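Against 344 genes called, DESeq2 gave 1190, library size alone 565, limma on log2(FPKM + 0.1) 521 and no fold cutoff 763. Library size alone moved the median log2 fold change of all genes from 0.01 to −0.16. Without fresh replicates 1, 2 and 3 there were 19, 14 and 47 calls, and without preconditioned replicates 1, 2 and 3 there were 1546, 16 and 72. Against 1 member called (IGF2), DESeq2 gave 3 (IGF2, IGFBP2 and IGFBP6), no fold cutoff gave 2, no filter on low counts gave 0 and limma on log2(FPKM + 1) gave 0 (6 and 5 with an unadjusted p of at most 0.05, against 4994 of 22190 and 5052 of 15029 genes). With a library left out, 0 to 1 members were called by edgeR, and without preconditioned replicate 1 that member was IGFBP6. Against 1 pathway gene called (ADAM9), DESeq2 gave 4, no fold cutoff 2, and the fits with a library left out 0 to 2. The replicate number as a block in edgeR left 30 genes, 0 members (5 with an unadjusted p of at most 0.05) and 0 pathway genes (10 of 48 with such a p, against 3695 of 15029 genes in that fit). Under the block IGF2 had a log2 fold change of −2.67. Same-numbered libraries did not deviate together (correlations of −0.067, −0.073 and −0.109 across genes). With 3 libraries per group and the animals not given, this cannot decide whether the numbers pair the libraries. INSR reversed to −0.13 with library size alone, −0.11 and −0.14 with limma on log2(FPKM + 1) and log2(FPKM + 0.1), −0.05 without fresh replicate 2 and −0.084 without preconditioned replicate 3 (−0.084 to 0.18 over the 6 fits with a library left out). IGFBP4 reversed to 0.27 without fresh replicate 3 (−0.50 to 0.27 over those fits). The other 7 tested members kept their direction under all 14 alternatives. The members' median log2 fold change stayed negative except without fresh replicate 3 (0.09), and each shift was smaller than the spread between libraries. The cause of these changes was not tested. At 1 to 15 counts per library, IGF1 entered only the fits without a filter on low counts and with DESeq2.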
